A study of Homo sapiens with 6 samples.

Results

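The p53 pathway genes described here are 34 genes of the pathway, chosen by name with earlier results of these data known. They are p53 targets with roles in cell cycle control, apoptosis and DNA repair, the genes that feed back on p53, and targets in metabolism and redox control. Of these, 33 were measured among the 15953 genes of the log2 CPM tables, and EDA2R was not analysed here. The libraries were made from RNA of EJ, a line of human bladder cancer cells in long use, with 3 in each of 2 groups. The shSTIL group was stable STIL-knockdown cells made with a lentivirus, and the shNC group was cells that carried the negative control lentivirus. No other treatment or allele is given in the labels, and which STIL sequence the lentivirus targeted is not given in the sources used here. The labels number the libraries of a group as replicates without saying that they came from separate cultures, so the p-values measure the spread between these libraries, which may be technical.

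The p53 protein is a transcription factor that stress, such as DNA damage or a failed mitosis, stabilizes. It binds near its target genes and raises their transcription: CDKN1A halts the cell cycle, BBC3, PMAIP1, BAX and the death receptors promote cell death, and XPC, DDB2 and POLH help to repair or bypass damaged bases. MDM2, itself a target, marks p53 for degradation, which closes a feedback loop. Many of these targets also respond to other transcription factors, so the level of a single target does not report p53 alone.

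The genes were compared as log2 CPM, the reads of a gene scaled to library size on the log2 scale, and a log2 fold change is the shSTIL mean minus the shNC mean. A gene is called a DEG where the limma adjusted p, over all 15953 genes, is under 0.01. The depth recovered from the tables was 16214771 to 16431241 reads in the shNC libraries and 16734468 to 16901633 in the shSTIL libraries. STIL, the targeted gene, had a log2 CPM of 5.98, 6.10 and 6.01 in the shNC libraries and 4.05, 4.06 and 4.01 in the shSTIL libraries, so 25.2% of the control level was left. Of the epithelial markers, KRT18 had a log2 CPM of 9.27 to 9.36 in shNC and 9.25 to 9.30 in shSTIL libraries, and KRT8 fell from a mean of 8.56 to 7.86, while the uroplakins UPK1A, UPK1B, UPK2 and UPK3B, which define mature urothelium, had a mean log2 CPM of at most 1.02 in either group. The epithelial list, 12 of 14 markers analysed, summed to 1013 to 1062 CPM in shNC and 868 to 895 CPM in shSTIL libraries, mostly from KRT18 and KRT8. CDH1 had at most 3 reads in any library, and EPCAM, GATA3, KRT5 and KRT20 had a mean log2 CPM of at most 0.17 in either group. Of the 12 markers, PPARG rose (log2 fold change 0.26, adjusted p = 0.0046 in limma), KRT8 and UPK1B fell and 9 were not called (47.1% of all genes were called). The mesenchymal list, 4 of 5 markers, summed to 1562 to 1603 and 969 to 988 CPM, with 2 markers lower (23.6% of all genes fell). These were VIM (log2 fold change -0.68, adjusted p = 8.1e-10 in limma) and FN1 (-1.19, adjusted p = 8.8e-10), while CDH2 and ZEB1 were not called. The blood and endothelial list, 4 of 8 markers, summed to 11.6 to 12.7 and 13.3 to 15.4 CPM, mostly from CD68, with none called at an adjusted p under 0.01 in limma. The part of these markers in the results below was not tested. The libraries hold bulk RNA, so fewer cells with a transcript and less of it per cell cannot be told apart.

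The sites at which p53 could bind are shown first, since several of the genes below are known by them. The p53 consensus is made of 2 adjacent copies of a 10-base unit that has C as the fourth and G as the seventh base. It reads the same on both strands. RefSeq promoter windows (GRCh38.p14) from 250 bases before to 50 bases after each annotated start were searched for 20-base sites with all 4 of these C and G bases and at most 3 mismatches to the consensus in all. The windows covered 28 of the 34 genes, and GADD45A, TNFRSF10A, TNFRSF10B, PHLDA3, TP53INP1 and RRM2B had none in the table. A site was found in windows of 8 of the 28 genes (9 of 41 windows, 22.0%), against 392 of all 35116 windows (1.12%). The best site of each gene is printed with the fixed C and G bases in capitals, on the strand of the gene.
DDB2: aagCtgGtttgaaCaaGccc
AEN: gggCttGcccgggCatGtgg
FAS: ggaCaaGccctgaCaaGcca
MDM2: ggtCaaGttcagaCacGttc
FDXR: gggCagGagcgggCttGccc
GDF15: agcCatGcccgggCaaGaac
PMAIP1: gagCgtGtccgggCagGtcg
SESN1: ggaCaaGtctccaCaaGtca
The site of DDB2, at chr11:47214969-47214988, had 1 mismatch. Those of AEN (chr15:88621306-88621325), FAS (chr10:88991309-88991328) and MDM2 (chr12:68808923-68808942) had 2, and those of FDXR (chr17:74872996-74873015, minus strand), GDF15 (chr19:18386186-18386205), PMAIP1 (chr18:59899811-59899830) and SESN1 (chr6:109009018-109009037, minus strand) had 3. The other sites lie on the plus strand. Counted from 0 at the start, the site of FAS began at -122, that of PMAIP1 at -185 and that of GDF15 at 28, inside the transcript. A match is a description of letters in this window, and a gene without one may hold a site elsewhere.

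The p53 pathway genes did not move one way in STIL-knockdown cells. Of the 33 genes, 13 rose, 11 fell and 9 were not called. The called share was 72.7%, against 47.1% of all genes. The share that rose was 39.4% against 23.5%, and the share that fell was 33.3% against 23.6%. The genes were chosen with earlier results of these data known, so these shares are a description only. Most of the 33 are well expressed. The log2 CPM averaged 1 or more for 31 of them, which include all 24 called genes (77.4%), and of all 11319 genes with such a mean 61.9% were called. Of these 31 genes 41.9% rose and 35.5% fell, against 30.5% and 31.4% of the 11319, so the share that fell was near that of expressed genes. The median log2 fold change was 0.10 over the 33 genes and 0.0052 over all genes, and it was 0.045 without SPATA18, which had at most 3 reads in any library. The edgeR test on recovered reads gave the same counts, 13 higher and 11 lower (49.1% of all genes called, 24.4% higher and 24.7% lower). The groups did not overlap for 26 of the 33 genes (60.3% of all genes). All 26 were among the 31 with a mean of 1 or more, and 8569 of the 11319 genes with such a mean did not overlap either. For a gene without overlap the exact two-sided permutation test cannot go below p = 0.1 with 3 libraries a group, and that was its value.

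The changes were small. The median absolute log2 fold change was 0.44 for the 24 called p53 pathway genes and 0.46 for all 7509 DEGs. FDXR alone changed by at least 2-fold, and it fell, beside 3.1% of all genes that fell and 2.86% that rose by that much. A change of at least 1.5-fold was reached by 6 of the 24 (25%) and by 36% of all DEGs. The plot of fold changes shows the genes by class. The classes hold 4 to 11 measured genes each, and differences between classes were not tested.

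**Figure D1:**
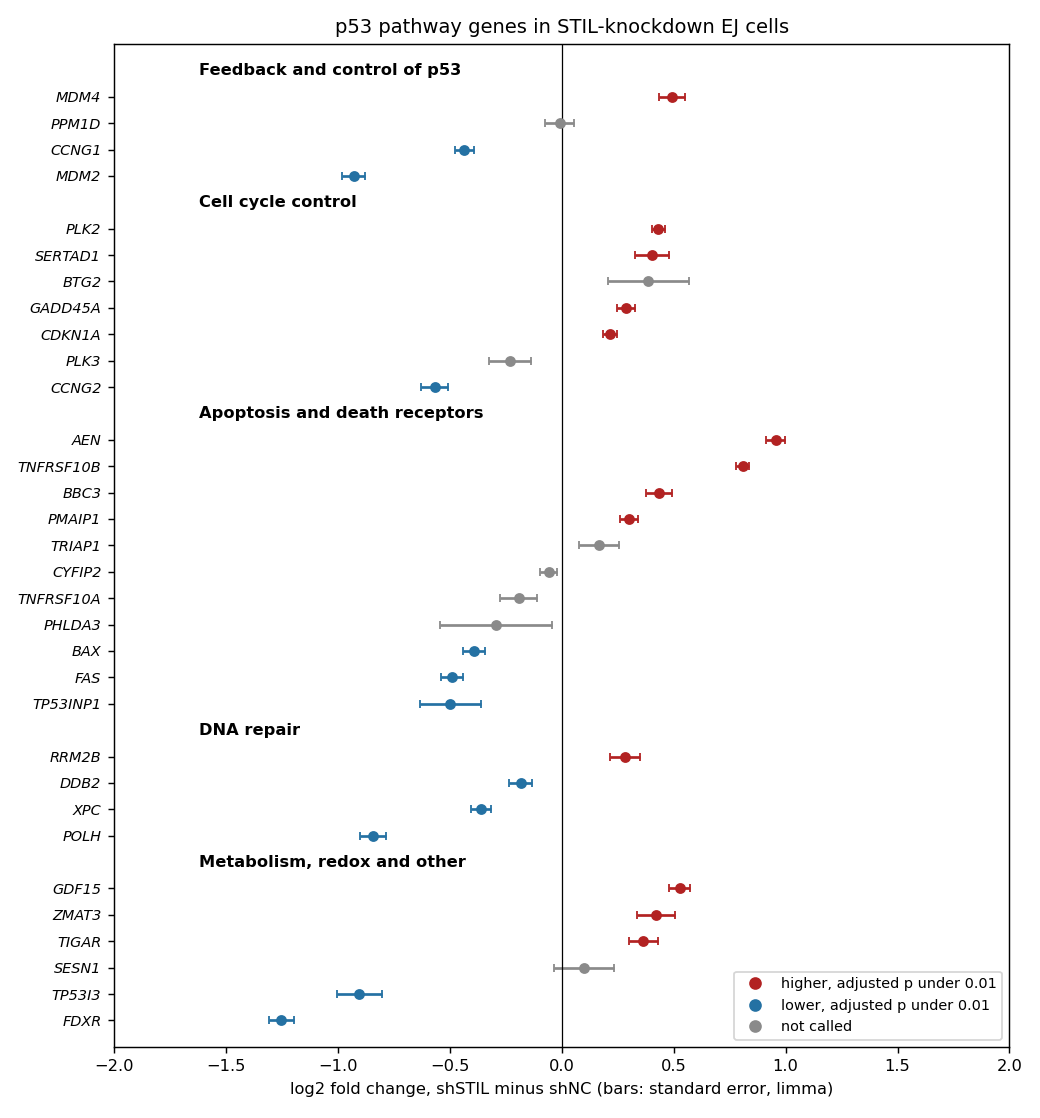
Log2 fold change (shSTIL minus shNC) of the p53 pathway genes, SPATA18 left out for its low counts, on the horizontal axis, by class and ordered by size within a class. Points are limma estimates, bars are 1 standard error, red and blue mark genes that rose or fell at an adjusted p under 0.01 and grey marks genes not called. The largest rise was AEN at 0.96 and the largest fall FDXR at -1.25.

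The feedback genes of p53 went in opposite directions, MDM2 down and MDM4 up. MDM2, the ubiquitin ligase that targets p53 for degradation (GRCh38, chr12:68808176-68850686, plus strand), had a log2 CPM of 6.14, 6.31 and 6.28 in the shNC libraries and 5.33, 5.27 and 5.33 in the shSTIL libraries. All shSTIL libraries lay far below all shNC libraries. The log2 fold change was -0.93 with a standard error of 0.05 (adjusted p = 3.3e-09 in limma), which left 52.5% of the control level. MDM4, a relative of MDM2 that binds p53 and blocks its activity (chr1:204516379-204558120, plus strand), had a log2 CPM of 5.45, 5.59 and 5.65 in the shNC libraries and 5.98, 6.16 and 6.03 in the shSTIL libraries. Every shSTIL library was higher. The log2 fold change was 0.49 with a standard error of 0.06 (adjusted p = 9.3e-06 in limma), or 1.41-fold, and without shSTIL replicate 3 it was 0.51 with an adjusted p of 0.0103, which is no longer a call. MDM2 shares 133 exon bases with a gene on the opposite strand, and whether the counting used strand is not given in the sources used here.

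The remaining feedback genes were CCNG1 and PPM1D. CCNG1, cyclin G1, which recruits a phosphatase to MDM2, had a log2 CPM of 7.75, 7.89 and 7.83 in shNC and 7.37, 7.46 and 7.34 in shSTIL libraries. The groups did not overlap, with a log2 fold change of -0.44 (adjusted p = 1e-06 in limma). PPM1D, the phosphatase WIP1 that switches off p53 and the DNA damage kinases, had a log2 CPM of 4.23, 4.18 and 4.25 in shNC and 4.22, 4.16 and 4.25 in shSTIL libraries. Its groups overlapped almost fully (log2 fold change -0.0097, standard error 0.07, adjusted p = 0.92), and the sign turned under another scaling.

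Outside the 34 genes, TP73, a p53 relative that can bind the same sites, fell from 4.72, 4.52 and 4.58 to 3.48, 3.57 and 3.62 log2 CPM, a log2 fold change of -1.05 (adjusted p = 7.9e-08 in limma). TP63 was scarcely expressed in both groups, at a mean log2 CPM of -0.22 in shNC and -0.33 in shSTIL libraries.

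Of the 7 genes of cell cycle control, 4 rose, 1 fell and 2 were not called, with a median log2 fold change of 0.29. Of all genes 23.5% rose and 23.6% fell, and of those with a log2 CPM that averaged 1 or more 30.5% and 31.4%. CDKN1A encodes p21, the CDK inhibitor through which p53 halts the cycle (chr6:36676460-36687339, plus strand). Libraries had a log2 CPM of 8.41, 8.35 and 8.36 in the shNC libraries and 8.58, 8.62 and 8.58 in the shSTIL libraries. The groups were separate but close: the log2 fold change was 0.22 with a standard error of 0.03 (adjusted p = 3.7e-05 in limma), a rise of 1.16-fold. This rise was too small to pass a test against a change of 1.2-fold, which 12 of the 24 called genes passed. GADD45A, a stress protein that binds p21 and PCNA, had a log2 CPM of 6.67 to 6.80 in shNC and 6.99 to 7.07 in shSTIL libraries, a log2 fold change of 0.29 (adjusted p = 3.6e-05). Without shSTIL replicate 3 the value was 0.28 and the adjusted p 0.0115.

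PLK2, a polo-like kinase of the centrosome that is also a p53 target, rose more than CDKN1A. Log2 CPM values were 8.24, 8.26 and 8.25 in the shNC libraries and 8.65, 8.71 and 8.69 in the shSTIL libraries. The log2 fold change was 0.43 with a standard error of 0.03 (adjusted p = 4.1e-08 in limma). SERTAD1, which binds and activates CDK4, rose by 1.32-fold, from 3.61 to 3.67 log2 CPM in shNC to 4.01 to 4.08 in shSTIL libraries (log2 fold change 0.40, adjusted p = 0.00037). CCNG2, cyclin G2, an unconventional cyclin of arrested cells, went the other way. It had a log2 CPM of 5.34, 5.49 and 5.47 in shNC and 4.80, 4.84 and 4.95 in shSTIL libraries, which left 67.4% (log2 fold change -0.57, adjusted p = 2.2e-06).

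The last 2 cell cycle genes had separate groups but no call. BTG2, an antiproliferative gene, had only 37 to 46 reads per shNC and 53 to 74 per shSTIL library, and its log2 CPM was 1.55, 1.56 and 1.29 against 1.69, 1.70 and 2.16. The log2 fold change was 0.39 (standard error 0.18, adjusted p = 0.088), and it was 0.23 without shSTIL replicate 3, the highest library. PLK3, another polo-like kinase of the stress response, had a log2 CPM of 4.22, 3.98 and 3.88 in shNC and 3.77, 3.87 and 3.74 in shSTIL libraries (log2 fold change -0.23, adjusted p = 0.048).

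The 11 apoptosis genes measured were split, with 4 higher, 3 lower and 4 not called, and a median log2 fold change of -0.06. The called share of the class, 63.6%, was near the 61.9% of all genes with a log2 CPM that averaged 1 or more. Among the death receptors of the cell surface, TNFRSF10B rose and FAS fell. TNFRSF10B, the TRAIL receptor DR5 (chr8:23020133-23069179, minus strand), had a log2 CPM of 7.73, 7.72 and 7.72 in the shNC libraries and 8.54, 8.51 and 8.55 in the shSTIL libraries. The spread within each group was small beside the gap. The log2 fold change was 0.81 with a standard error of 0.03 (adjusted p = 8.3e-11 in limma), or 1.75-fold. TNFRSF10A, the other TRAIL receptor with a death domain, had 4.52, 4.44 and 4.55 log2 CPM in shNC and 4.37, 4.11 and 4.45 in shSTIL libraries, which overlap (log2 fold change -0.19, adjusted p = 0.068). FAS, the receptor of FAS ligand (chr10:88990582-89015785, plus strand), had 5.49, 5.63 and 5.56 log2 CPM in shNC and 5.07, 5.06 and 5.08 in shSTIL libraries. Its log2 fold change was -0.49 (standard error 0.05, adjusted p = 1.6e-06). FAS shares 380 exon bases with ACTA2 on the opposite strand, and TNFRSF10B shares 67 with RHOBTB2.

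The mitochondrial branch was split as well. BBC3 and PMAIP1 encode PUMA and NOXA, small proteins that bind and block the BCL2 family's survival members, and both rose. BBC3 had 4.60, 4.57 and 4.66 log2 CPM in shNC and 5.04, 5.12 and 4.98 in shSTIL libraries (log2 fold change 0.43, adjusted p = 2.2e-05 in limma). PMAIP1 had 5.98, 6.10 and 6.001 log2 CPM in shNC and 6.32, 6.32 and 6.35 in shSTIL libraries (log2 fold change 0.30, adjusted p = 3.1e-05). BAX, the pore-forming protein that they release, fell. Levels were 5.97, 5.88 and 6.001 log2 CPM in shNC and 5.49, 5.64 and 5.54 in shSTIL libraries, which left 76.3% (log2 fold change -0.39, adjusted p = 1.7e-05). BBC3, PMAIP1 and BAX did not pass the limma test against a change of 1.2-fold (adjusted p = 0.0233, 0.461 and 0.0475).

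The largest rise of the 33 genes was that of AEN, an exonuclease that digests DNA in apoptosis (chr15:88621296-88632282, plus strand). Libraries had a log2 CPM of 5.14, 5.17 and 5.13 in the shNC libraries and 6.13, 6.08 and 6.11 in the shSTIL libraries. Reads rose from 555 to 585 per shNC library to 1158 to 1194 per shSTIL library, a log2 fold change of 0.96 with a standard error of 0.04 (adjusted p = 5.1e-10 in limma). TP53INP1, a nuclear protein that promotes p53 activity and autophagy, was at 2.60, 2.94 and 2.96 log2 CPM in shNC and 2.21, 2.39 and 2.41 in shSTIL libraries, from 95 to 123 and 77 to 88 reads. It fell by 0.50 on the log2 scale (adjusted p = 0.007). The call was lost without shNC replicate 2 or 3 and without each shSTIL replicate, with adjusted p of 0.046 to 0.0636 and log2 fold changes of -0.53 to -0.43. With all 6 libraries it was also lost under DESeq2 (adjusted p = 0.0119), quantile normalization (0.0166), median centring (0.0117) and limma without the trend (0.0186).

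The last 3 genes of this class were not called. TRIAP1, an inhibitor of apoptosis, had a log2 CPM of 3.41 to 3.63 in shNC and 3.62 to 3.72 in shSTIL libraries (log2 fold change 0.17, adjusted p = 0.14). CYFIP2, a partner of the fragile X protein, had 6.88 to 6.96 in shNC and 6.80 to 6.89 in shSTIL libraries (log2 fold change -0.06, adjusted p = 0.21). CYFIP2 shares 62 exon bases with ADAM19 on the opposite strand. PHLDA3, a repressor of AKT, was scarcely expressed, with 15 to 19 reads per shNC and 10 to 18 per shSTIL library (adjusted p = 0.35).

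All 4 DNA repair genes were called, of which 3 fell and RRM2B rose (47.1% of all genes were called, and 61.9% of those with a log2 CPM that averaged 1 or more), and the median log2 fold change was -0.27. POLH, the polymerase that copies past ultraviolet lesions (chr6:43576150-43615660, plus strand), fell most. Its log2 CPM was 5.10, 5.08 and 5.13 in the shNC libraries and 4.21, 4.23 and 4.35 in the shSTIL libraries, a log2 fold change of -0.84 with a standard error of 0.06 (adjusted p = 5.1e-08 in limma), which left 55.8%. XPC, the sensor that opens nucleotide excision repair, had 5.42, 5.38 and 5.43 log2 CPM in shNC and 5.06, 5.05 and 5.06 in shSTIL libraries (log2 fold change -0.36, adjusted p = 1.4e-05). XPC shares 318 exon bases with LSM3 on the opposite strand, and POLH shares 4 with GTPBP2.

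DDB2, the damage sensor that acts before XPC on ultraviolet lesions, moved least of the 4. It had a log2 CPM of 5.36, 5.29 and 5.40 in shNC and 5.13, 5.16 and 5.22 in shSTIL libraries, so that the groups were separate but near (log2 fold change -0.18, standard error 0.05, adjusted p = 0.0063 in limma). The call held without shNC replicate 2 and was lost without each of the other 5 libraries, with adjusted p of 0.0165 to 0.039. With all 6 libraries it was also lost with the replicate block (0.0119), under DESeq2 (0.0286), with median centring (0.0286) and in limma without the trend (0.024). RRM2B, the p53-induced subunit of ribonucleotide reductase, had 5.06, 5.33 and 5.22 log2 CPM in shNC and 5.53, 5.54 and 5.38 in shSTIL libraries. Its log2 fold change was 0.28 (standard error 0.07, adjusted p = 0.0028), and the call was lost without any 1 of the 6 libraries, with log2 fold changes of 0.21 to 0.34 and adjusted p of 0.0149 to 0.0887. It was also lost in limma without the trend (adjusted p = 0.0402).

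In the class of metabolism, redox control and other roles, 3 genes rose, 2 fell and 2 were not called. Of all genes 23.5% rose and 23.6% fell, and of those with a log2 CPM that averaged 1 or more 30.5% and 31.4%. The largest fall of the 33 genes lay in this class. FDXR encodes ferredoxin reductase, which passes electrons to ferredoxin in mitochondria for steroid, heme and iron-sulfur synthesis (chr17:74862497-74873031, minus strand). Log2 CPM values were 5.66, 5.72 and 5.78 in the shNC libraries and 4.47, 4.40 and 4.53 in the shSTIL libraries. The gap was many times the spread. The log2 fold change was -1.25 with a standard error of 0.05 (adjusted p = 5.4e-10 in limma), which left 42% of the control level. TP53I3, a quinone oxidoreductase, had 3.61, 3.64 and 3.64 log2 CPM in shNC and 2.86, 2.69 and 2.63 in shSTIL libraries. From 194 to 201 reads per shNC library, 103 to 122 were left per shSTIL library (log2 fold change -0.90, standard error 0.10, adjusted p = 4.2e-06). TP53I3 shares 80 exon bases with FAM228B on the opposite strand.

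GDF15, a secreted stress cytokine of the TGF-beta family, rose by 1.44-fold. It had a log2 CPM of 9.05, 8.88 and 8.86 in the shNC libraries and 9.38, 9.49 and 9.50 in the shSTIL libraries (log2 fold change 0.53, standard error 0.05, adjusted p = 5.5e-07 in limma). TIGAR, a phosphatase that lowers glycolysis, had 4.25, 4.38 and 4.32 log2 CPM in shNC and 4.64, 4.75 and 4.65 in shSTIL libraries (log2 fold change 0.36, adjusted p = 0.00025). ZMAT3, an RNA-binding zinc finger protein, had 4.06, 4.23 and 3.87 log2 CPM in shNC and 4.45, 4.48 and 4.50 in shSTIL libraries. Its log2 fold change was 0.42 (adjusted p = 0.00079), and the call held without shNC replicate 2 and was lost without each of the other 5 libraries, with log2 fold changes of 0.33 to 0.44 and adjusted p of 0.0126 to 0.0434. It was also lost in limma without the trend (adjusted p = 0.0148). SESN1, a sestrin of the oxidative stress response, had 2.50, 2.96 and 2.76 log2 CPM in shNC and 2.85, 2.74 and 2.94 in shSTIL libraries, which overlap (log2 fold change 0.10, adjusted p = 0.58). SPATA18, a gene of mitochondrial quality control, had 0 to 2 reads per shNC and 0 to 3 per shSTIL library, too few to compare.

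**Figure D2:**
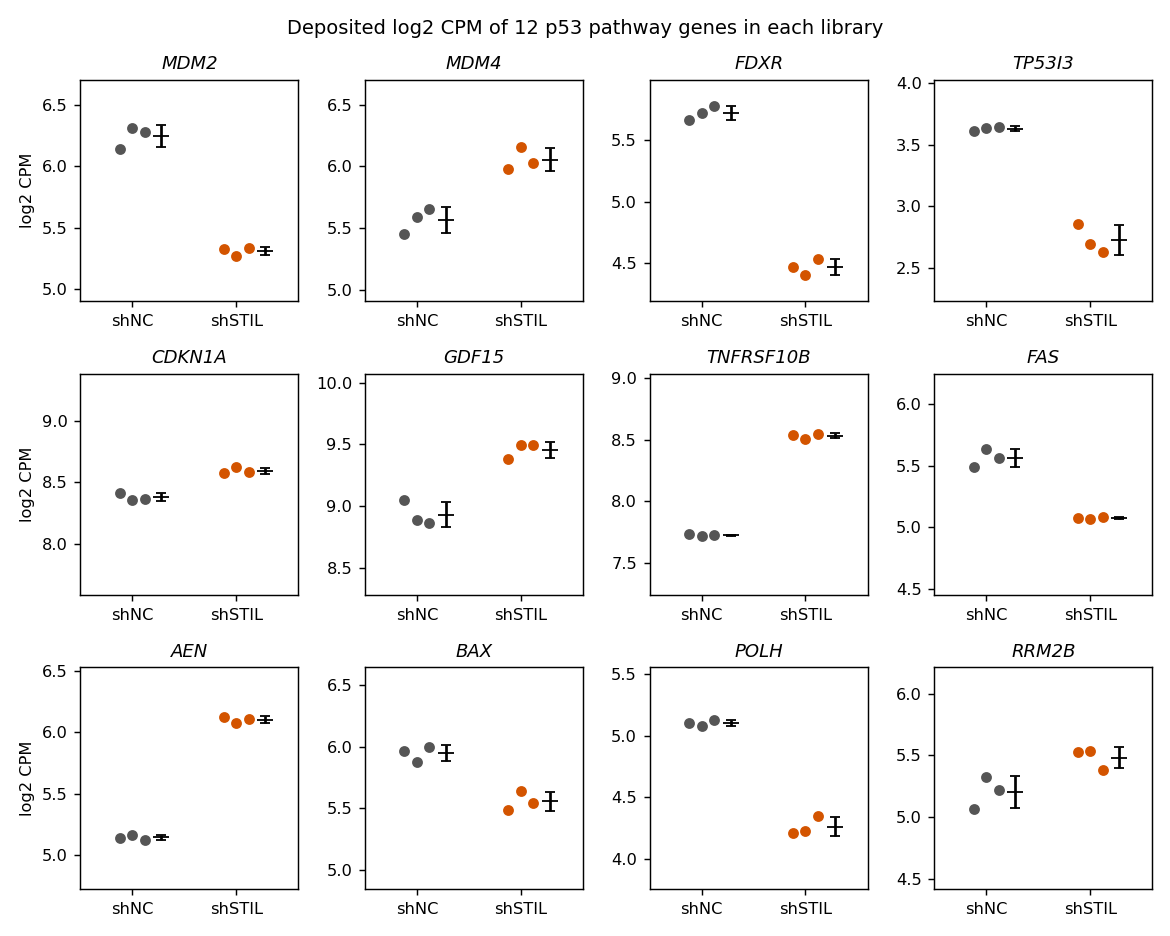
Deposited log2 CPM of 12 p53 pathway genes, chosen after their values were seen, in the 3 shNC (grey) and 3 shSTIL (orange) libraries, with the group mean and SD in black. Each vertical axis spans the same range of log2 CPM but starts at its own level. MDM2, FDXR, TP53I3, FAS, BAX and POLH were lower in all shSTIL libraries, and MDM4, CDKN1A, GDF15, TNFRSF10B, AEN and RRM2B were higher.

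The promoter sites printed above were found in genes that moved both ways. Of the 8 genes with a site, 4 fell (DDB2, FAS, MDM2 and FDXR), 3 rose (AEN, GDF15 and PMAIP1) and SESN1 was not called, while 23.6% of all genes fell and 23.5% rose. The pair with the largest changes shows this: FDXR fell by 1.25 and AEN rose by 0.96 on the log2 scale, and their sites began at -21 and -34 from a start. No match was found in the windows of CDKN1A, PLK2 and BBC3, which rose, or of BAX, TP53I3, POLH and XPC, which fell.

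The rest of the pathway was read from wider lists, also chosen with earlier results of these data known. Of 72 other p53 targets analysed (75 listed), 17 rose and 22 fell, with a median log2 fold change of -0.02. The called share was 54.2%, against 47.1% of all genes and 61.9% of those with a log2 CPM that averaged 1 or more. Such a mean was reached by 59 of the 72 genes in this list. Its genes went both ways, shown by examples chosen after their values were seen: EPHA2, an ephrin receptor kinase (log2 fold change 0.77, adjusted p = 2.1e-10 in limma) and PRKAB1 (0.63, adjusted p = 1.1e-07) rose, while SFN, which encodes 14-3-3 sigma (-0.89, adjusted p = 5e-09), and NADSYN1 (-1.22, adjusted p = 2.8e-08) fell. Of 20 kinases, cofactors and other regulators of p53, some of which act against it, 7 rose, 5 fell and 8 were not called. So 60% were called, near the 61.9% of genes with a log2 CPM that averaged 1 or more. As examples chosen the same way, CREBBP, an acetyltransferase that p53 uses, rose by 0.77 on the log2 scale, from 6.27 to 6.33 log2 CPM in shNC to 7.001 to 7.12 in shSTIL libraries (adjusted p = 3.2e-09), and CHEK2, a kinase that activates p53, fell by 0.34 (adjusted p = 0.0013).

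None of the 8 genes listed around centrosome errors and p53 rose, and 4 fell. STIL is needed to build centrioles, and cells that lose centrioles or gain too many can activate p53 through TP53BP1 and USP28, or through the PIDDosome, a complex of PIDD1, CRADD and CASP2 that can cleave MDM2. Of the 8 genes in this list, 4 fell and 4 were not called (23.6% of all genes fell), with a median log2 fold change of -0.19. All 8 had a log2 CPM that averaged 1 or more. The called share was 50%, below the 61.9% of all genes with such a mean, of which 31.4% fell. PIDD1, itself a p53 target, had 5.53, 5.28 and 5.27 log2 CPM in shNC and 4.15, 4.30 and 4.21 in shSTIL libraries (log2 fold change -1.14, adjusted p = 2.2e-08 in limma). CASP2 had 6.59, 6.58 and 6.55 log2 CPM in shNC and 5.85, 5.86 and 5.87 in shSTIL libraries (log2 fold change -0.71, adjusted p = 1.9e-09). USP28 fell by 0.26 on the log2 scale (adjusted p = 0.00057) and ANKRD26, which anchors PIDD1 at the centrosome, by 0.48 (adjusted p = 0.0024), while TP53BP1 was at -0.12 (adjusted p = 0.012). CRADD, LATS2 and TRIM37, at -0.05, -0.07 and -0.02, were not called either.

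The genes that p21 lowers through the DREAM complex were lower almost throughout. Of 16 such cell cycle genes, 15 fell and PLK4 was not called, with a median log2 fold change of -0.49. Of all genes 23.6% fell, and of those with a log2 CPM that averaged 1 or more 31.4%. The list was chosen with earlier results of these data known, so its count is a description only. E2F1 fell by 0.87 on the log2 scale (adjusted p = 3.1e-09 in limma) and CCNB1 by 0.64 (adjusted p = 1.8e-09). These genes also follow the share of cycling cells, which was not measured in these libraries.

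**Figure D3:**
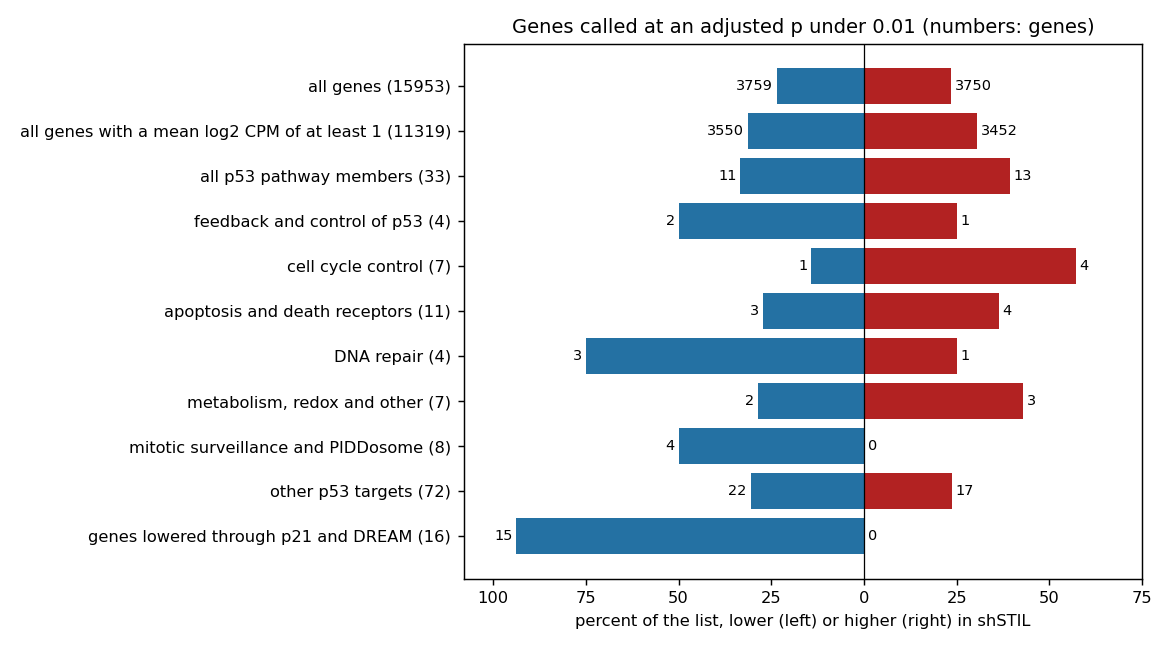
Percent of each list that fell (blue, left) or rose (red, right) in STIL-knockdown cells at an adjusted p under 0.01, with the number of genes beside each bar and the number analysed in brackets. The 33 p53 pathway genes have 13 rises and 11 falls, cell cycle control 4 and 1, DNA repair 1 and 3, and the 16 genes lowered through p21 and DREAM 0 and 15.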

How the data were processed

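RNA-seq libraries of EJ cells, 3 shNC and 3 shSTIL, were used. The authors filtered reads from the BGISEQ-500 with SOAPnuke, aligned them to transcripts with Bowtie2 and estimated counts with RSEM (hg38, per the labels). The authors then deposited log2 CPM values, made with edgeR, for 15953 genes. The headings of the deposited tables call the groups siRNA, whereas the labels and methods give shRNA. Groups follow the labels. Deposited RSEM expected counts, held for 4 libraries, served only to check the reads recovered from the log2 CPM (largest difference 0.0252 reads).

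Limma 3.58.1 (R 4.3.3) with a mean-variance trend was fitted to the log2 CPM of all genes, with Benjamini-Hochberg adjustment and a threshold of 0.01. EdgeR 4.0.16 and DESeq2 1.42.0 were run as alternatives on recovered reads rounded to whole numbers. Of the recovered values, 87.1 to 87.4% per library were whole within 0.005. The fits were tested on simulated data, where limma recovered fewer of the changed genes than edgeR or DESeq2 and made a larger share of false calls, most of them at a mean log2 CPM under 1. All 24 called members lie above that level, and edgeR called the same 24. Far fewer genes were changed in the simulated data than the 7509 called here, so the share of false calls may not carry over. All measured members were named, and other genes where a result turned on them or as examples chosen after their values were seen. The members and lists were chosen with earlier results of these data known. Gene positions and exon overlaps come from GENCODE and promoters from RefSeq. The reads given are RSEM estimates, not all of them whole, so they carry more than counting error. Some items of the wider lists are not reported here.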

Additional observations from a re-analysis of the deposited data

How the results depend on the processing

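STIL fell under every alternative run, with a log2 fold change of -2.01 to -1.96 when 1 library was left out. All 24 called p53 pathway genes kept their direction, and 18 of them kept their call under all 14 alternatives other than a test against a minimum fold. Against a change of 1.2-fold, 3317 genes were DEGs, with 5 p53 pathway genes higher and 7 lower. Leaving out 1 library gave 4900 to 5638 DEGs, 9 to 12 p53 pathway genes higher and 9 to 10 lower, with the fewest DEGs without shSTIL replicate 3. A fit of fewer libraries has less power by construction. EdgeR called 13 higher and 11 lower, and DESeq2 13 and 9. The sign of PPM1D, which was not called, turned to 0.038 with quantile normalization, 0.033 with median centring, 0.0052 without shNC replicate 3 and 0.015 without shSTIL replicate 2 (range -0.031 to 0.015 with 1 library left out), and that of SESN1 to -0.019 without shNC replicate 1 (range -0.019 to 0.21). The cause was not tested.

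The replicate numbers do not pair the libraries: the deviations of same-numbered libraries from their group means correlated at -0.121, -0.0553 and -0.107. With the replicate block there were 6898 DEGs, with 13 p53 pathway genes higher and 10 lower, log2 fold changes such as -1.99 for STIL were the same, and DDB2 was the call lost (adjusted p = 0.0119). Depth limits PHLDA3, BTG2 and SPATA18, which had the fewest reads of the p53 pathway genes.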
